A study of Mus musculus with 8 samples.

Results

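The autophagy genes described here were 45 genes of the autophagy machinery, chosen by name from the induction kinases to the lysosomal membrane, and found in the counts table by matching its Ensembl IDs to GENCODE symbols. All 45 were present among the 55414 IDs of the table, and all 45 were among the 11929 genes that passed the filter on low counts and were tested. RNA had been sequenced from purified Paneth cells of mouse small intestine, which were obtained by FACS and read as bulk libraries prepared with a stranded mRNA kit. The TG group held 4 libraries of DT TG genotype, in which a transgene makes the Paneth cells produce diphtheria toxin, an inhibitor of protein synthesis, and the WT group comprised 4 libraries of wild type mice. The series is titled as a profile of cells purified once mature Paneth cells had been depleted, and the toxin kills the cells that make it. The labels name no further treatment in either group, and the study works with C57BL/6J mice. The study's results describe its Paneth cell samples as coming from individual mice. A supplementary legend says that sorted cells were pooled, without saying whether across animals. The spread between libraries is read here as that between mice. The sources used here do not name the promoter that drives the toxin or the age of the mice.

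Autophagy is the route by which a cell wraps part of its cytoplasm in a double membrane, the autophagosome, and delivers it to the lysosome. A kinase complex starts the process, a lipid kinase complex marks the site, membrane is supplied from the endoplasmic reticulum and from vesicles, and a conjugation system similar to ubiquitination attaches proteins of the ATG8 family to the growing membrane, where they bind receptors that carry cargo. Paneth cells depend on this machinery for normal granules, and Atg16l1, Atg5 and Atg7 are the genes through which that dependence is best known, Atg16l1 also as a gene of Crohn's disease risk.

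Total counts ranged from 13107397 to 16218434 per library. Y-linked genes had 897 to 1564 counts in replicates 3 and 4 of either group and 0 in replicates 1 and 2, which gave 2 libraries of each kind per group. Mitochondrial genes took 1.15% to 1.53% of the counts in TG and 0.566% to 1.10% in WT. Of 10 Paneth cell markers, 0 were called higher and 3 lower in TG, or 3 of 10 against 17.9% of all tested genes. The 3 were Mptx2 at -1.35, Mmp7 at -0.59 and Ang4 at -0.57 on the log2 scale. Mptx2 fell from a mean of 15324 CPM in WT to 6026 CPM in TG, without overlap. CPM are counts scaled to a common library size, with TMM factors, here and below. The 10 markers summed to 375212 to 462084 CPM in TG and 355151 to 535761 CPM in WT. Lyz1 and Defa24, which were not called (0.07 and -0.19), made up most of this sum. Of 12 enterocyte markers, 11 were tested, all 11 were fitted higher in TG and 5 were called, with a summed level of 522 to 692 CPM in TG and 354 to 455 CPM in WT, and none of the 12 was at 0 in all libraries. Anpep, which was not called (0.19), made up most of this sum, and the median log2 fold change of the 11 was 1.56, with Alpi at 2.56 and Apoa4 at 2.79, both called. Of 6 stem cell markers, 2 were called higher (Axin2 at 0.52 and Slc12a2 at 0.41 on the log2 scale) and 1 lower (Smoc2 at -0.35), or 3 of 6 against 17.9% of all tested genes, with summed levels of 2256 to 3122 CPM in TG and 2019 to 2769 CPM in WT that overlapped. Of the tested markers of proliferation (6), goblet (8), enteroendocrine (4) and tuft cells (4), 0 were called by edgeR, and 1 of them, in the goblet list, had an unadjusted p below 0.05. Immune markers summed to at most 1.35 CPM, with Csf1r at 0 in all libraries, and fibroblast markers to at most 0.312 CPM. The part that these differences between the groups play in the results below was not tested, and in bulk RNA fewer cells of a type and less RNA per cell cannot be told apart.

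Differences between the groups were small for most autophagy genes, and 6 of 45 changed. Calcoco1, a receptor for the autophagy of endoplasmic reticulum and Golgi membranes, Ulk1, the kinase that starts the process, and Atg7, the activating enzyme of the conjugation system, were higher in TG. Lamp2, a major glycoprotein of the lysosomal membrane, Gabarap, an ATG8 protein, and Vmp1, a lipid scramblase of the endoplasmic reticulum, were lower in TG. These 6 made up 13.3% of the 45 members, against 17.9% of all tested genes called in either direction by the same fit (edgeR, adjusted p below 0.05). The 3 higher members stand beside 8.26% of all genes called higher, and the 3 lower members beside 9.65% called lower, so neither share was above the background. Without TG replicate 1 the higher calls dropped to 1, and without TG replicate 2 the lower calls dropped to 1. The share of all genes called in either direction also dropped, to 9.05% and 8.73% in these fits. At an unadjusted p below 0.05, 13 members passed, 10 higher and 3 lower, which is 28.9% of the members against 33.1% of all genes.

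The same picture was seen in the sizes of the differences. The log2 fold change, TG over WT throughout, had a median of -0.03 over the members and 0.01 over all genes, and 20 members were fitted higher and 25 lower. Without regard to sign, the median was 0.17 over the members and 0.21 over all genes. For 35 of 45 members, the 95% interval of the difference lay within 1.5-fold in either direction, and for 44 it lay within 2-fold, the exception being Calcoco1, whose interval reached 1.36 on the log2 scale. The direction of small differences depended on the scaling. When library totals replaced the TMM factors, the median of all genes shifted from 0.01 to 0.12, that of the members to 0.09, and 33 members were then fitted higher, of which 19 lay above the median of all genes. None of the 6 called members changed sign under that scaling, whereas 13 others did.

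**Figure D1:**
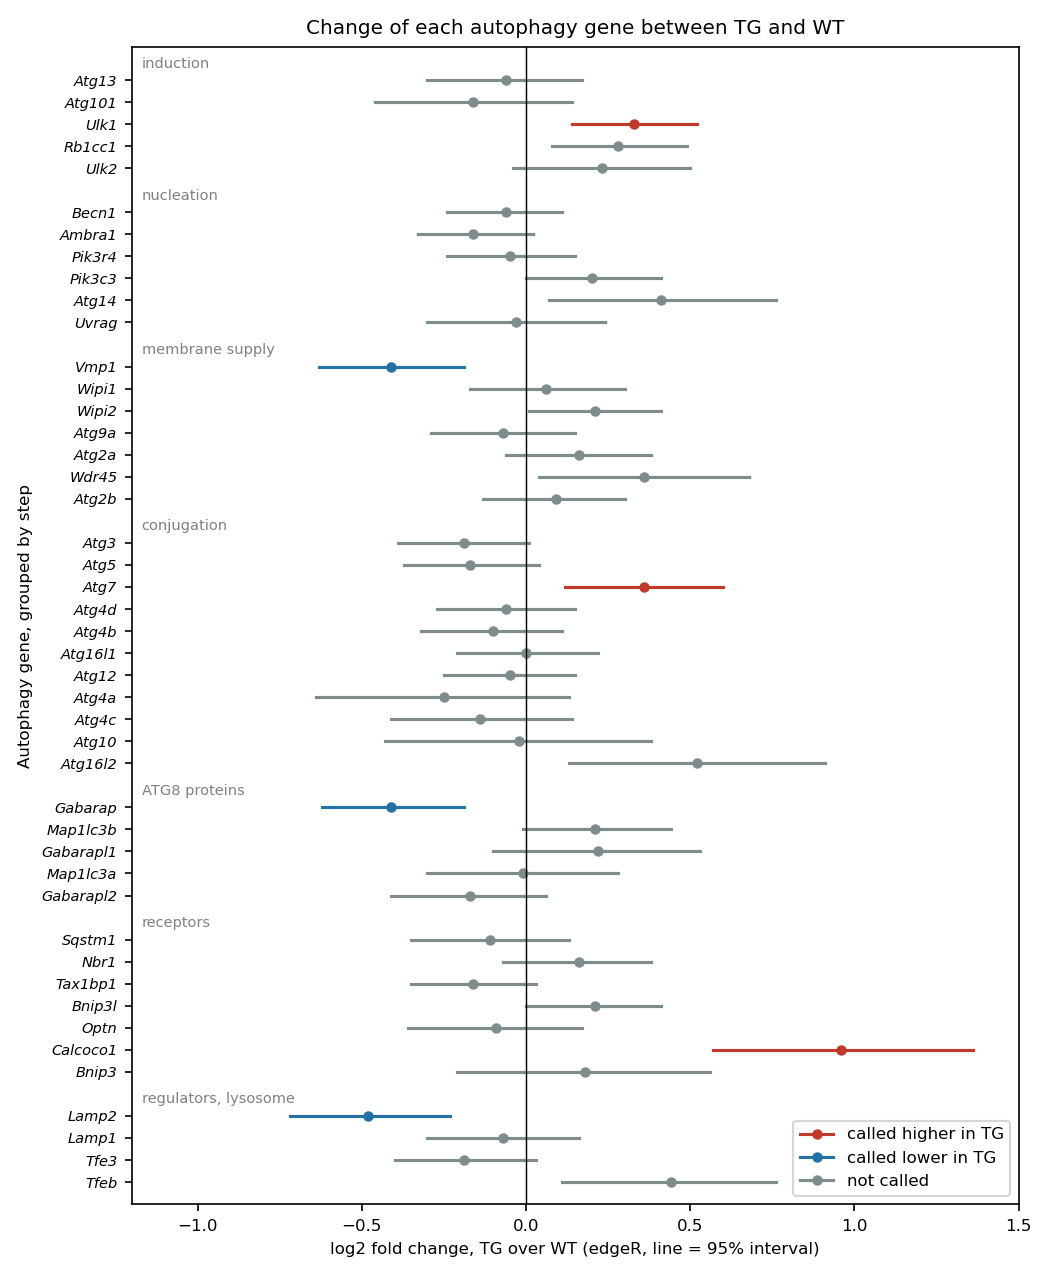
Log2 fold change (TG over WT, horizontal axis) of each of 45 autophagy genes (vertical axis, grouped by step), with a point for the edgeR estimate and a line for its 95% interval, from 4 libraries per group. Red marks the 3 genes called higher, blue the 3 called lower and grey the 39 not called, and Calcoco1 at 0.96 lies farthest from 0.

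Autophagy genes were expressed at moderate levels in these cells, and the steps differed widely. The mean level in WT ran from 3.32 to 372 CPM, with a median of 32.7 CPM, and the raw counts behind it from 39 to 5601 per gene and library. The 45 genes summed to 0.268 ± 0.00512% of a TG library and 0.260 ± 0.0161% of a WT library (SD over 4 libraries), with ranges of 0.261% to 0.272% and 0.242% to 0.281% that overlapped. To set genes beside each other, CPM was divided by the length of the canonical transcript in kb. Exons on the opposite strand cover over 500 bases of 10 members, among them 1072 bases of Lamp1 and 937 of Sqstm1. The strand setting of the counting is not stated in the sources used here. On this scale the highest values in WT were those of the lysosomal membrane genes, Lamp2 at 209 ± 30.3 and Lamp1 at 133 ± 19.5 CPM per kb. Next in value were the ATG8 genes Gabarap (109 ± 12.4 CPM per kb) and Map1lc3b (81.3 ± 11.4 CPM per kb), and then the cargo receptors Sqstm1 (65.7 ± 10.7 CPM per kb), Nbr1 (52.3 ± 7.77 CPM per kb) and Tax1bp1 (38.8 ± 3.57 CPM per kb). Lamp1 and Gabarap, Map1lc3b and Sqstm1, and Sqstm1 and Nbr1 differed by less than the sum of their SDs over libraries. The genes of a pair were measured in the same libraries, and the first named had the higher value per kb in each WT library. The median member stood at 6.90 CPM per kb in WT, and the lowest were Bnip3, a mitochondrial receptor, at 1.12 and Atg16l2 at 0.492 CPM per kb. In TG, Lamp2 (150 ± 15.8 CPM per kb) and Lamp1 (127 ± 7.80 CPM per kb) had the highest values. They also differed by less than the sum of their SDs, with Lamp2 the higher in each TG library. Map1lc3b stood at 94.3 ± 8.07 and Gabarap at 82.4 ± 8.36 CPM per kb in TG. Replicates were close, with a median coefficient of variation over members of 11.9% in WT and 8.51% in TG.

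**Figure D2:**
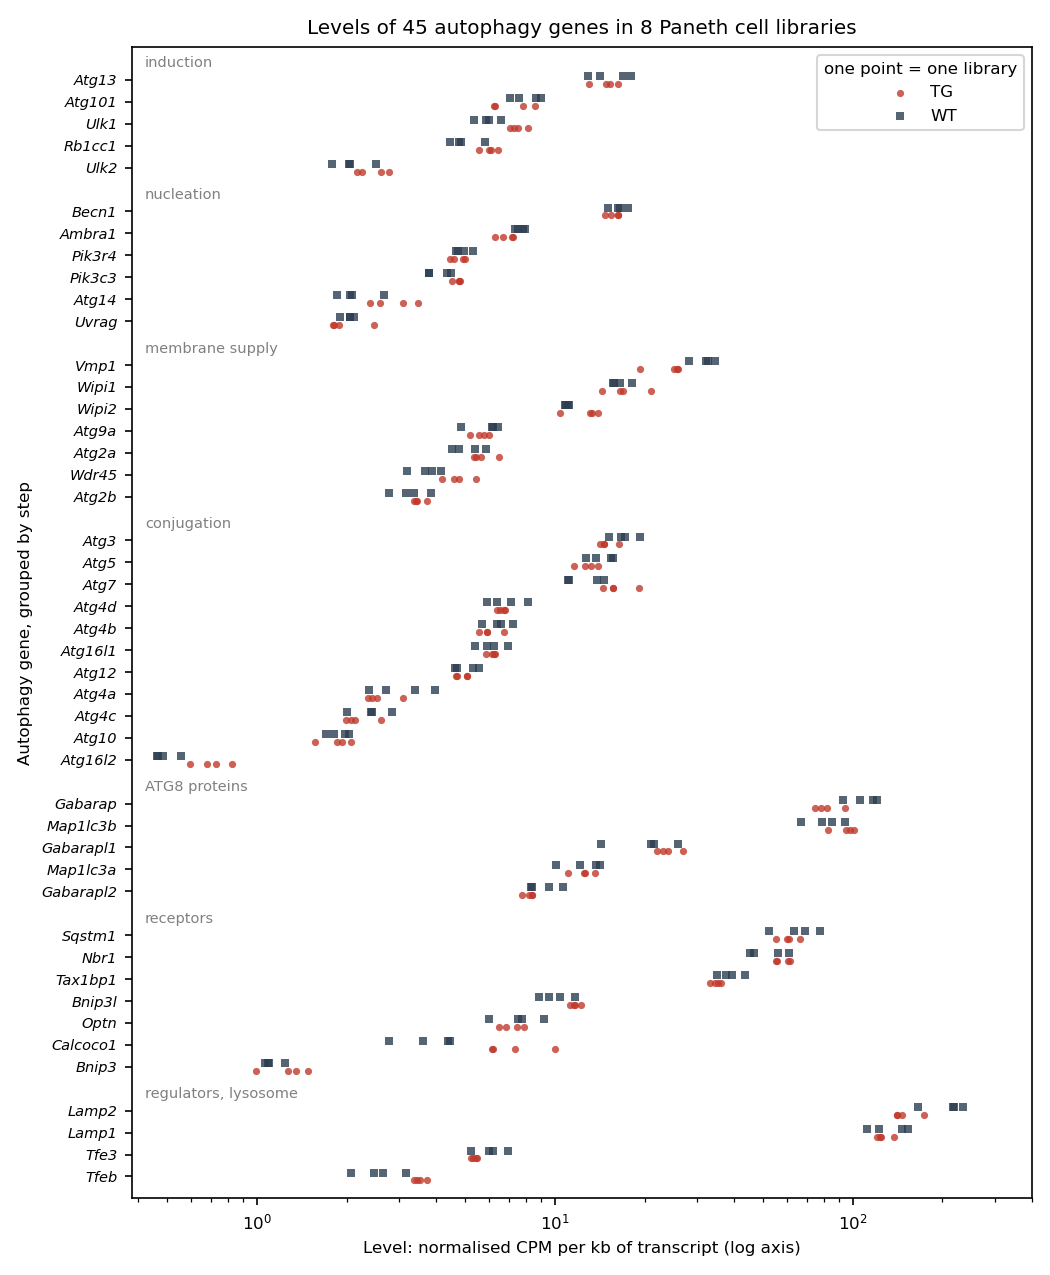
Level of 45 autophagy genes in CPM per kb of transcript (horizontal log axis) in each library, grouped by step on the vertical axis, with red circles for the 4 TG and dark squares for the 4 WT libraries. Lamp2, Lamp1, Gabarap and Map1lc3b lie at the right and Atg16l2, at 0.492 CPM per kb in WT, at the far left.

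Induction is run by the kinases Ulk1 and Ulk2 with the scaffold Rb1cc1 and the subunits Atg13 and Atg101, and 1 of these 5 genes was called. Ulk1 (ENSMUSG00000029512, chr5:110931496-110957995, minus strand) measured 49.5, 44.4, 43.0 and 45.9 CPM in TG replicates 1 to 4 and 36.7, 35.6, 32.6 and 40.1 CPM in WT replicates 1 to 4. All 4 TG libraries lay above all 4 WT libraries. Its log2 fold change was 0.33 ± 0.09 (SE, edgeR adjusted p = 0.0202), and the call was lost without TG replicate 1 (0.30, adjusted p = 0.0721). Rb1cc1, at 46.2 ± 2.79 CPM (SD) in TG and 37.9 ± 4.57 CPM in WT, did not pass by edgeR (0.28 ± 0.10, adjusted p = 0.0537) but passed with DESeq2 and with limma voom. Ulk2 had a difference of 0.23 ± 0.13 and Atg101 one of -0.16 ± 0.14, and neither passed. The most abundant gene of the step per kb, Atg13, measured 94.9, 80.3, 91.9 and 101 CPM in TG and 87.4, 105, 79.9 and 111 CPM in WT. These ranges overlapped throughout, and the difference of -0.06 ± 0.11 had an interval of -0.30 to 0.17 (edgeR adjusted p = 0.734). Exons of Arhgap1 and Harbi1 on the opposite strand cover 3442 bases of Atg13, and the sources used here do not state the strand setting of the counting.

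Nucleation is the work of the lipid kinase Pik3c3 with its regulatory subunit Pik3r4 and the scaffold Becn1, and of Atg14, Uvrag and Ambra1, which bind Becn1 and steer the complex. None of these 6 genes was called by edgeR at an adjusted p below 0.05, and 1 of them, Atg14, had an unadjusted p below 0.05. Becn1, the most abundant of them per kb, measured 71.0, 64.3, 67.2 and 71.0 CPM in TG and 72.4, 76.6, 66.0 and 71.1 CPM in WT. The groups overlapped, and the difference was -0.06 ± 0.08 with an interval of -0.24 to 0.11 (edgeR adjusted p = 0.613). Exons of Cntd1 on the opposite strand cover 2361 bases of Becn1. Pik3c3 was above WT in all 4 TG libraries (20.1 to 21.4 against 16.8 to 20.0 CPM) and Ambra1 was below WT in all 4 (34.4 to 39.8 against 40.3 to 43.4 CPM), with differences of 0.20 ± 0.10 and -0.16 ± 0.08 that did not pass. Atg14, which directs the complex to the autophagosome, showed the largest value of the step, 0.41 ± 0.16 (edgeR adjusted p = 0.0853). In replicates 1 and 2, without Y-linked counts, it was 0.75 (edgeR adjusted p = 0.0446), and in replicates 3 and 4 it was 0.08 (edgeR adjusted p = 0.886).

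Membrane reaches the growing autophagosome through the lipid transfer proteins Atg2a and Atg2b, the scramblases Atg9a and Vmp1, and the adaptors Wipi1, Wipi2 and Wdr45, which bind the lipid that Pik3c3 makes. Vmp1 (ENSMUSG00000018171, chr11:86474269-86574853, minus strand) was the 1 called gene of these 7. It measured 85.5, 65.5, 88.0 and 87.6 CPM in TG and 117, 111, 96.1 and 109 CPM in WT. Every TG library lay below every WT library, and replicate 2 was the lowest of the TG libraries. The difference on the log2 scale was -0.41 ± 0.10 (SE, edgeR adjusted p = 0.0165). Exons of Gm74184 and Ptrh2 on the opposite strand cover 477 bases of Vmp1. The call was lost without TG replicate 2 (-0.32, adjusted p = 0.0535) and when library totals replaced the TMM factors (-0.29, edgeR adjusted p = 0.122). The remaining 6 genes ran from -0.07 ± 0.10 for Atg9a to 0.36 ± 0.15 for Wdr45, and 5 of the 7 genes of the step were fitted higher in TG. Wdr45 did not overlap between the groups (6.76 to 8.81 CPM in TG, 5.15 to 6.71 CPM in WT) but did not pass (edgeR adjusted p = 0.112). Transcript sequence of Atg9a and Wdr45 is shared with other annotated genes, since 39.4% of the 75-base windows of Atg9a also lie in Gm29253 and 43.4% of those of Wdr45 in Gm45208.

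Conjugation starts with Atg7, passes through the carriers Atg3 and Atg10, and ends at a complex of Atg5, Atg12 and Atg16l1, while the Atg4 proteases process and release the ATG8 proteins. Of these 11 genes, Atg7 alone was called. Atg7 (ENSMUSG00000030314, chr6:114620044-114837576, plus strand) measured 59.2, 58.9, 54.5 and 72.2 CPM in TG and 52.1, 41.7, 41.9 and 54.9 CPM in WT. The groups met at their edges, since WT replicate 4 lay just above TG replicate 3. On the log2 scale TG exceeded WT by 0.36 ± 0.11 (SE, edgeR adjusted p = 0.0401). This was the least stable of the 6 calls. When 1 library at a time was left out, it was lost in 5 of 8 fits, with adjusted p of 0.0762 without TG replicate 1, 0.0795 without TG replicate 2, 0.112 without TG replicate 4, 0.0909 without WT replicate 2 and 0.0985 without WT replicate 3 (edgeR), and the fold change in these ran from 0.27 to 0.38. It was also lost with limma voom (0.32, adjusted p = 0.0524).

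Atg16l1, Atg5 and Atg3 did not pass in the same step. Atg16l1 measured 19.8, 19.7, 19.4 and 18.5 CPM in TG and 18.7, 22.0, 17.0 and 19.7 CPM in WT, and its difference was 0.00 ± 0.10 with an interval of -0.21 to 0.22 (edgeR adjusted p = 0.997). The TG libraries lay inside the WT range, and the sign of this value has no weight, as it turned in several alternative fits. Atg5 measured 31.4, 33.1, 27.5 and 30.1 CPM in TG and 37.4, 30.3, 32.8 and 36.7 CPM in WT, with a difference of -0.17 ± 0.10 (edgeR adjusted p = 0.237). Atg3, the most abundant gene of the step per kb, measured 32.0, 31.1, 31.9 and 35.8 CPM in TG and 37.7, 33.3, 36.4 and 42.2 CPM in WT, with a difference of -0.19 ± 0.09 (edgeR adjusted p = 0.161). Both genes had overlapping groups. The partner Atg12 had a difference of -0.05 ± 0.09, the 4 Atg4 genes lay between -0.25 ± 0.18 (Atg4a) and -0.06 ± 0.10 (Atg4d), and Atg10 was at -0.02 ± 0.19. In Atg4a, 51.4% of windows also lie in its pseudogene Atg4a-ps. Atg16l2, a relative of Atg16l1 at the bottom of the range of levels, measured 4.02 to 5.56 CPM in TG and 3.11 to 3.76 CPM in WT without overlap, and its 0.52 ± 0.18 did not pass by edgeR (adjusted p = 0.0597) but passed with limma voom.

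ATG8 proteins are attached to the autophagosome membrane, where they recruit receptors and help it close and fuse. The family had 5 members here, of which 1 was called. Gabarap (ENSMUSG00000018567, chr11:69881888-69886109, plus strand) measured 138, 132, 145 and 166 CPM in TG and 213, 187, 164 and 206 CPM in WT. The groups overlapped only where TG replicate 4 reached just past WT replicate 3. Gabarap fell by 0.41 on the log2 scale (SE 0.10, edgeR adjusted p = 0.0159). The call was lost without TG replicate 1 (-0.37, adjusted p = 0.0617), without TG replicate 2 (-0.36, adjusted p = 0.0595) and with total counts (-0.28, edgeR adjusted p = 0.0699). Map1lc3b, whose lipidated protein is the usual marker of autophagosomes, measured 89.8, 87.4, 73.6 and 84.6 CPM in TG and 83.8, 70.1, 59.6 and 75.8 CPM in WT. Its sign was opposite to that of Gabarap, with overlapping groups and a difference of 0.21 ± 0.11 that did not pass (interval -0.01 to 0.44, edgeR adjusted p = 0.172). The others were Gabarapl1 at 0.22 ± 0.15, Map1lc3a at -0.01 ± 0.14 and Gabarapl2 at -0.17 ± 0.11, and none of these 3 passed. Pseudogenes share 23.9% of the windows of Map1lc3b and 13.2% of those of Gabarapl2, and none of those of Gabarap.

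Cargo receptors link ubiquitinated proteins (Sqstm1, Nbr1, Optn and Tax1bp1), membranes of the endoplasmic reticulum and Golgi (Calcoco1) or mitochondria (Bnip3 and Bnip3l) to ATG8 proteins. Of these 7, Calcoco1 alone was called, and it was the largest and most stable difference among the autophagy genes. Calcoco1 (ENSMUSG00000023055, chr15:102614354-102630631, minus strand) measured 27.1, 36.9, 22.6 and 22.8 CPM in TG and 16.1, 16.4, 10.2 and 13.3 CPM in WT. All TG libraries lay above all WT libraries, and TG replicate 2 was the highest. The log2 fold change was 0.96 ± 0.18 (SE, interval 0.57 to 1.36, edgeR adjusted p = 0.00494). It was 0.97 in replicates 1 and 2, without Y-linked counts, and 0.96 in replicates 3 and 4, and its call was kept in all 8 fits with 1 library removed and in all 11 other alternatives. Its transcript shares no window with another gene and no exon with one on the opposite strand.

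Among the receptors that did not pass, Sqstm1 was the most abundant per kb and measured 197, 200, 181 and 217 CPM in TG and 254, 207, 171 and 226 CPM in WT. The TG libraries lay inside the WT range, and the difference was -0.11 ± 0.11 (interval -0.35 to 0.13, edgeR adjusted p = 0.525). Nbr1 was at 0.16 ± 0.11, Tax1bp1 at -0.16 ± 0.09 and Optn at -0.09 ± 0.12. The mitochondrial receptors Bnip3l and Bnip3 were at 0.21 ± 0.09 and 0.18 ± 0.18, and pseudogenes share 20.6% of the windows of Bnip3l.

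Tfeb and Tfe3 are transcription factors of autophagy and lysosome genes, and Lamp1 and Lamp2 are the main glycoproteins of the lysosomal membrane, where Lamp2 is needed for fusion with autophagosomes and, in one isoform, for chaperone-mediated autophagy. Lamp2 (ENSMUSG00000016534, chrX:37488520-37545340, minus strand) was the 1 gene called among these 4. It measured 261, 250, 250 and 309 CPM in TG and 418, 390, 294 and 385 CPM in WT. TG replicate 4 reached above WT replicate 3, and otherwise the groups stood apart. Lamp2 differed by -0.48 ± 0.12 on the log2 scale (SE, edgeR adjusted p = 0.0127), and the call was kept in all 8 fits with 1 library removed. Lamp1 differed by -0.07 ± 0.11 and Tfe3 by -0.19 ± 0.10, without passing. Tfeb was above WT in all 4 TG libraries (7.90 to 8.72 CPM against 4.87 to 7.42 CPM), and its 0.44 ± 0.15 did not pass by edgeR (adjusted p = 0.0611) but passed with limma voom.

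**Figure D3:**
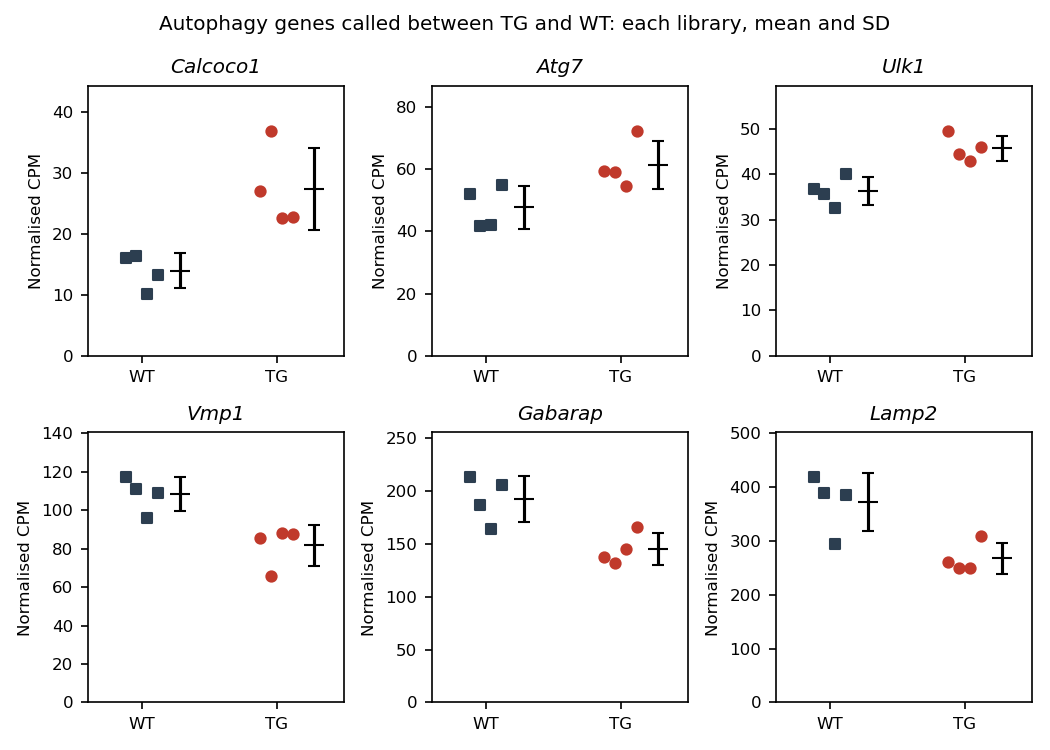
CPM (vertical axis, from 0) of the 6 autophagy genes called between the groups, with 1 point per library in the order of replicates 1 to 4 (dark squares WT, red circles TG) and the mean with its SD beside them. Calcoco1, Ulk1 and Vmp1 do not overlap between the groups, while Atg7, Gabarap and Lamp2 overlap at 1 library on each side.

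Counted over all steps, the CPM ranges of TG and WT did not overlap for 8 of 45 members, 6 higher and 2 lower, which is 17.8% against 22.0% of all tested genes. They were Ulk1, Pik3c3, Ambra1, Vmp1, Wdr45, Atg16l2, Calcoco1 and Tfeb, and 5 of the 8 were not called by edgeR. The libraries without Y-linked counts called 5 members, Atg14, Vmp1, Gabarap, Calcoco1 and Lamp2, against 9.44% of all genes called in them. Those with Y-linked counts called 1, Calcoco1, against 1.80% of all genes, and 5 members had an unadjusted p below 0.05 there, against 17.6% of all genes (edgeR, 2 libraries per group in each fit). In these fits, Lamp2 differed by -0.66 without and by -0.28 with Y-linked counts, Gabarap by -0.57 and -0.25, Vmp1 by -0.60 and -0.22, Ulk1 by 0.38 and 0.29, and Atg7 by 0.33 and 0.39. The sign was the same in both kinds of library for 32 members, or 71.1%, against 72.7% of all genes. A test of the difference between the kinds of library called 0 members (edgeR interaction term, lowest adjusted p = 0.835) and 3 of all 11929 genes, or 0.0251%, so that the count of 0 says little about the members. At an unadjusted p below 0.05 there were 2 members, Atg14 and Atg4d, against 5.73% of all genes.

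The promoters of the called genes were read for the E-box that Tfeb and Tfe3 bind. The letters searched were CACGTG, and the longer core of the lysosomal element, TCACGTGA, which contains it, and both read the same on either strand. The window held 300 bases, from 250 before to 50 after the start of the canonical transcript in GRCm39. The E-box was found in 5 of 45 members (Atg14, Atg5, Gabarap, Bnip3 and Lamp1), or 11.1%, against 10.4% of tested genes with a window, and the longer core in 0 members against 1.8% of tested genes. In the lysosome list, 30% of genes held the E-box and 20% the longer core. The shares were 15% and 7.5% in the list of other autophagy genes and 25% and 6.25% in that of the vacuolar ATPase. They were 21.4% and 0% in that of mTORC1 and AMPK control. Among the 6 called genes, Gabarap alone held an E-box, beginning 42 bases before the start. The 250 bases before the start are given for Gabarap, with the E-box in capitals, and for the genes with the largest rise and fall, Calcoco1 and Lamp2, which hold none. They are chr11:69881638-69881887 (plus strand), chr15:102630614-102630863 (minus strand) and chrX:37545341-37545590 (minus strand) in GRCm39.
Gabarap: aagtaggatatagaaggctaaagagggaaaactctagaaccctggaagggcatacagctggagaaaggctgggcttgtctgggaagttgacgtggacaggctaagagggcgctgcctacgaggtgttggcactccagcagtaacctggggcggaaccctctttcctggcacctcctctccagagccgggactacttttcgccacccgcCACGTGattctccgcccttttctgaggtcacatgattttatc
Calcoco1: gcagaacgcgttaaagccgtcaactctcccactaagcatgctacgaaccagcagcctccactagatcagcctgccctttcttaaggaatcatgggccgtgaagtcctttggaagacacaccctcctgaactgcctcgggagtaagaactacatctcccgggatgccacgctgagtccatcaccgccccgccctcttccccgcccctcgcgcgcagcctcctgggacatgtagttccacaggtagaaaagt
Lamp2: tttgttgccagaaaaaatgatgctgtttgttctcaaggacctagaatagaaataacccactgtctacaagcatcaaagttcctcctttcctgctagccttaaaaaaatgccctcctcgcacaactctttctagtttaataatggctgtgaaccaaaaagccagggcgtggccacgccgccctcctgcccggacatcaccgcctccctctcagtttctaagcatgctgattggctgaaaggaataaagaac

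Other genes around autophagy were examined as 4 lists, with counts and medians from the same fit. Of 37 tested genes of the list of other autophagy genes, 3 were called higher and 6 lower in TG (24.3%, median log2 fold change -0.06). With total counts 2 were called higher and 2 lower, and the median was 0.05. Under that scaling the median of all genes was 0.12, and 8.80% of all genes were called. Higher calls rose to 5 with limma voom and without WT replicate 2, and lower calls dropped to 3 without TG replicate 1, TG replicate 2 or WT replicate 4. Irgm1, an interferon-induced GTPase, measured 27.5, 23.1, 25.5 and 21.3 CPM in TG and 45.1, 45.8, 46.4 and 36.4 CPM in WT, and its -0.83 ± 0.11 was called (edgeR adjusted p = 0.000587). Its relative Igtp fell by 1.24 on the log2 scale (edgeR adjusted p = 0.00727). Stx17, the SNARE protein that fuses autophagosomes with lysosomes, was higher in TG at 87.5 ± 0.777 against 63.6 ± 2.53 CPM (SD), a difference of 0.46 ± 0.08 (edgeR adjusted p = 0.00166).

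Among 40 tested lysosome genes, 3 were called higher and 6 lower (22.5%, median -0.05). With total counts 3 were called higher and 2 lower, and the median was 0.08, against 0.12 over all genes. Higher calls dropped to 1 without TG replicate 1 or TG replicate 2, and lower calls to 3 without TG replicate 2. In these fits 9.05% and 8.73% of all genes were called, against 17.9% with all libraries. The protease Lgmn measured 62.1, 63.6, 76.2 and 42.5 CPM in TG and 256, 187, 140 and 136 CPM in WT, with no overlap and a log2 fold change of -1.55 ± 0.24 (edgeR adjusted p = 0.00479). The cathepsin Ctsf went the other way, at 5.23 ± 1.27 CPM in TG and 2.35 ± 0.695 CPM in WT, a difference of 1.15 ± 0.25 (edgeR adjusted p = 0.00741). The proton pump that acidifies the lysosome had 0 genes called higher and 2 called lower of 16 (12.5%, median -0.20), and these were Atp6v0a2 (-0.47 ± 0.09, edgeR adjusted p = 0.00307) and Atp6ap1 (-0.37 ± 0.08, edgeR adjusted p = 0.00851). All 16 were fitted lower with TMM factors, 12 lower and 4 higher with total counts, where neither call held. The median with total counts was -0.08, against 0.12 over all genes. With DESeq2, limma voom or no filter, and without TG replicate 4 or WT replicate 2, 4 of the 16 were called lower, and without WT replicate 3, 5 were.

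Upstream of Ulk1, growth signalling through mTORC1 holds autophagy back and AMPK releases it. Of 40 tested genes of this control, 5 were called higher and 2 lower (17.5%, median 0.14). With total counts 6 were called higher and 0 lower, and the median was 0.25, against 0.12 over all genes. Higher calls rose to 9 with no filter, to 8 in the libraries without Y-linked counts and to 8 without TG replicate 4. Lower calls were 1 with no filter, with the Y-linked covariate and in the libraries without Y-linked counts. They dropped to 0 without TG replicate 2 or WT replicate 1, and to 1 without TG replicate 1, TG replicate 3, WT replicate 3 or WT replicate 4. Flcn, which acts on the Rag GTPases that carry mTORC1 to the lysosome, measured 34.4, 32.6, 28.2 and 28.7 CPM in TG and 24.8, 21.8, 20.4 and 19.4 CPM in WT, without overlap (0.52 ± 0.10, edgeR adjusted p = 0.00469). Its partner Fnip2 differed by 0.67 ± 0.14 (edgeR adjusted p = 0.00676). Deptor, an inhibitor of mTOR, was at 190 ± 22.4 CPM in TG and 130 ± 20.8 CPM in WT, a difference of 0.55 ± 0.12 (edgeR adjusted p = 0.00739). Against 17.9% of all genes called, the 4 lists ran from 12.5% to 24.3%. In the libraries with Y-linked counts alone, the 4 lists had 0 genes called higher and 1 called lower, Irgm1, against 1.80% of all genes, and the other genes named from these lists lost their call (edgeR, for example Stx17 at 0.41 with adjusted p = 0.0732, Lgmn at -1.21 with adjusted p = 0.0813, Fnip2 at 0.63 with adjusted p = 0.101 and Deptor at 0.35 with adjusted p = 0.208).

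**Figure D4:**
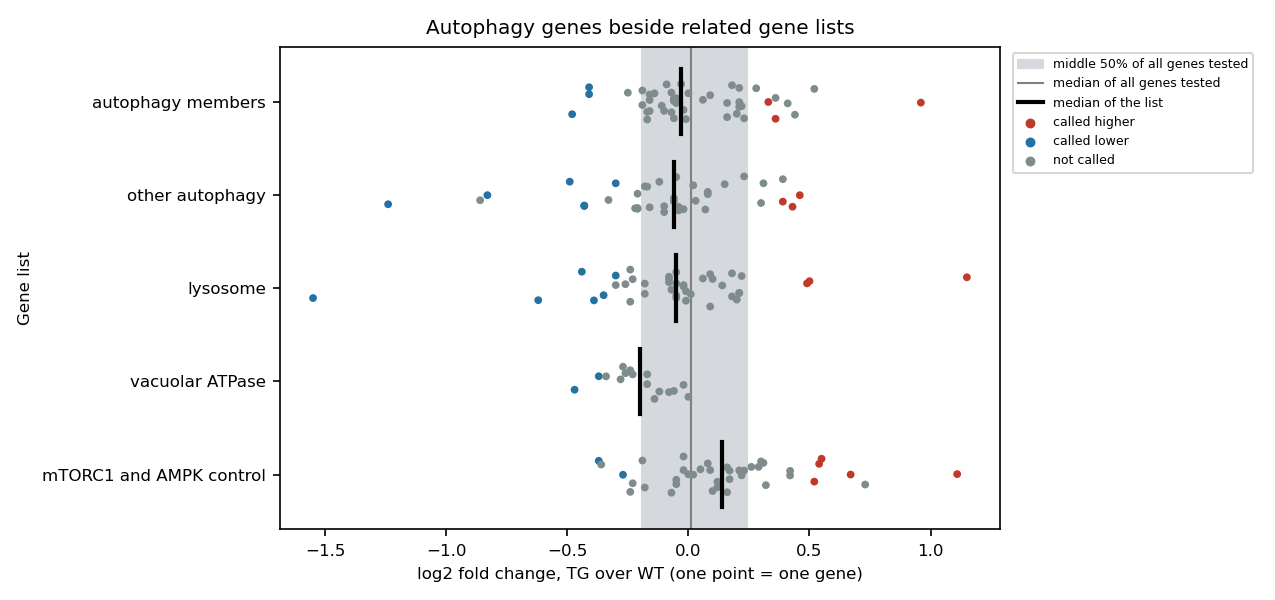
Log2 fold change (TG over WT, horizontal axis) of the autophagy members and of the tested genes of 4 related lists (vertical axis), 1 point per gene, with the median of each list as a black bar and the middle 50% of all tested genes, from -0.19 to 0.24, in grey. The medians run from -0.20 for the vacuolar ATPase to 0.14 for mTORC1 and AMPK control, and the members' median of -0.03 lies near that of all genes.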

How the data were processed

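Whole-number read counts per gene for 8 libraries were deposited by the authors as 1 table of 55414 Ensembl IDs. The submitters' processing notes name FastQC 0.12.0, STAR 2.7.0a, DESeq2 and the mm39 build. The sources used here do not state the counting tool, its strand setting or the annotation. GENCODE M39 (GRCm39) gave symbols, positions and canonical transcript lengths and matched 54749 IDs. Groups came from the labels. The members, gene lists, tests and the rule for named genes (called members, the most abundant member per kb of each step, Atg16l1, Atg5, Atg7, Map1lc3b and Sqstm1, and the 3 called genes with the smallest p of each list) were chosen with earlier results of these data known. A gene that this rule names is not reported here.

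Counts were tested with edgeR 4.0.16 in R 4.3.3 (robust quasi-likelihood, TMM factors, default filter by group, group as the only term), with Benjamini-Hochberg adjustment over 11929 genes at 0.05. CPM values are TMM-scaled. Standard errors are the fold change over the square root of its F statistic. Alternatives were DESeq2 1.42.0, RLE factors, voom with quality weights (limma 3.58.1), total counts, library sizes without 28 alpha-defensin genes, no filter, 1 CPM in 4 libraries, a replicate block, a Y-linked covariate, separate fits of the libraries with and without Y-linked counts, and each library left out in turn. Shared sequence was computed from 75-base windows of canonical transcripts, and no reads were examined. On simulated data for this comparison (11929 genes, of which 11814 were tested), 78% of 200 genes changed by a log2 fold change of 1 were recovered, with 10 false calls. Smaller changes were not simulated. The members' median without regard to sign was 0.17, so the 78% does not apply to differences of that size.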

Additional observations from a re-analysis of the deposited data

Results flagged for a closer look

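A single library lay apart from the 3 others of its group, by the gap to its neighbour as a share of the whole range (Dixon's ratio, above its 95% critical value), in 3 of the 90 groups of 4 that 45 autophagy genes in TG and WT give. Chance flags about 1 in 20 groups, or 4.50 of 90. Vmp1 in TG replicate 2 was lowest, at 65.5 CPM against 85.5 to 88.0 CPM in the other TG libraries (ratio 0.888). Uvrag in the same library was highest, at 15.6 CPM against 11.4 to 11.9 CPM (ratio 0.885). Pik3c3 in TG replicate 3 was lowest, at 20.1 CPM against 21.2 to 21.4 CPM (ratio 0.882).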

How the results depend on the processing

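Calcoco1 was called in all 19 alternatives and Lamp2 in 18, and none of the 6 called members changed sign in any. RLE factors, library sizes without alpha-defensin genes, no filter, 1 CPM in 4 libraries, the Y-linked covariate and the replicate block called the same 6 members. With the replicate block, 3 members were called higher and 3 lower, and 5 genes of the other autophagy list were called higher against 3 without it. The correlations of deviations between same-numbered libraries were 0.0114, 0.0578, 0.279 and 0.219. Without values for different-numbered libraries beside them, they do not decide whether the numbers pair the libraries. The main fit left pairing out. Members called higher (3) became 5 with limma voom (Atg7 was lost, and Rb1cc1, Atg16l2 and Tfeb were added) and 1 in the libraries with Y-linked counts, and ranged from 1 to 4 when 1 library was left out. Members called lower (3) became 1 with total counts and 0 in the libraries with Y-linked counts, and ranged from 1 to 3 when 1 library was left out. The members' median of -0.03 became 0.09 with total counts, 0.03 with and -0.05 without Y-linked counts, and ranged from -0.07 to 0.00 when 1 library was left out. Over all genes, 985 were called higher, 787 with total counts, 113 in the libraries with and 500 in those without Y-linked counts, and 485 to 1045 when 1 library was left out. Called lower were 1151, 263 with total counts, 103 with and 638 without Y-linked counts, and 553 to 1183 when 1 library was left out. Signs turned for differences near 0. Atg13 was at 0.05 with total counts, 0.02 in the libraries with Y-linked counts and from -0.14 to 0.02 when 1 library was left out. Becn1 was at 0.05 and 0.02 and Sqstm1 at 0.02 and 0.01 with total counts and in the libraries with Y-linked counts. Atg16l1 was at 0.00 with no filter, at -0.05 without Y-linked counts and from -0.06 to 0.07 when 1 library was left out. Fits within 1 kind of library hold fewer libraries. The cause of the other changes was not tested. Lower limits of detection did not bear on the members, whose counts were at least 39 per library.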
